A study of Mus musculus with 12 samples.

Results

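The genes that write, copy, read and erase cytosine methylation were followed through liver RNA-seq of mice that differed in genotype and diet. They were found by symbol among the rows of the count table, and all 9 of the 9 named genes were present among its 55357 genes: the methyltransferases Dnmt1, Dnmt3a and Dnmt3b, the methylation-copying partners Uhrf1 and Uhrf2, the dioxygenases Tet1, Tet2 and Tet3, and the methyl-CpG reader Mbd1. All mice were C57BL/6J males that carried the floxed Ppara allele on both chromosomes (PPARafl/fl). KO mice also carried AlbuminCreTg/+, a Cre transgene driven by the hepatocyte promoter of albumin, while WT mice had no Cre (AlbuminCre+/+). The study describes the deletion of Ppara as hepatocyte-specific, and in which liver cells it occurred was not tested here. At 7 weeks of age the mice went onto chow or onto CDAHFD, a high-fat diet made up with defined L-amino acids and lacking choline, for 6 weeks. The libraries were 4 of WT chow, 3 of WT CDAHFD, 2 of KO chow and 3 of KO CDAHFD, each taken as 1 mouse, and every p-value therefore measures the spread between these 12 libraries. The study's histology table scores more KO mice on chow and fewer on CDAHFD than there are libraries, and the second KO chow library is described with another number than its title, so the groups given here are those of the labels. The study chose epigenetic writers, readers and erasers for display from the same mice, so the direction of the members is not independent evidence.

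Cytosines in CpG dinucleotides are methylated on both strands, and after replication the new strand must be methylated anew. UHRF1 recognises the half-methylated DNA behind the replication fork and brings in DNMT1, which copies the mark, whereas DNMT3A and DNMT3B place methyl groups on DNA that had none. TET enzymes oxidise 5-methylcytosine with iron and 2-oxoglutarate as helpers, and readers such as MBD1 bind methylated CpG and recruit repressors. In the adult liver most hepatocytes are not dividing, so the replication-coupled part of this machinery is usually low and rises when cells enter the cycle.

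Sequences are shown for the Dnmt1 transcript and for the start sites of Dnmt1 and Uhrf1, the pair that copies methylation. Dnmt1 was also followed by qPCR in these mice, with the primer pair printed here. On the first Dnmt1 transcript of GENCODE M21 the forward primer lies in exon 21 and the reverse primer in exon 22, with a product of 123 bp. The pair is held by 4 of the 7 Dnmt1 transcripts and by transcripts of no other gene. Both are printed 5′ to 3′, entirely in lower case because no base stands out.
Dnmt1 forward, chr9:20922046-20922068 on GRCm38: ggacaaggagaatgccatgaagc
Dnmt1 reverse, chr9:20920130-20920151 on GRCm38: ttactccgtccagtgccaccaa

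Motif letters were searched in RefSeq promoters of GRCm38.p6, from 250 bases before to 50 bases after each start, on both strands: TTCCCGC or TTGGCGC, letters bound by E2F factors, and CCAAT, the box bound by NF-Y. The PPAR response element was searched too, as AGGTCA repeated after 1 free base. All were picked after the sequences had been seen. The E2F letters were in 6.81% of 32851 promoters and in 3 of the 13 promoters of the 8 members that matched the table (all but Mbd1), namely those of Dnmt1, Uhrf1 and Uhrf2, and CCAAT was in 37.4% of all and in 5 of the 13 (Dnmt1, Uhrf1 and Tet3). The PPAR response element was in 0.0396% of all promoters and in 0 of the 13. At so low a share, 0 of 13 cannot tell the members from other promoters. With Homer, the study reports PPARα motifs in several of its differentially expressed transcription factors and methyl-binding proteins, a search not repeated here. The windows of 30 bases below show the E2F letters of Dnmt1 and of Uhrf1, and for Uhrf1 also the CCAAT box, in capitals, and the letters of these motifs do not overlap.
Uhrf1, chr17:56303283-56303312, plus strand, E2F letters from position -48 of the start: tctcgcTTCCCGCcacagcgccagCCAATc
Dnmt1, chr9:20952574-20952603, minus strand, E2F letters from position 35 after a RefSeq start: gcgcggggcagcgtTTGGCGCgggctgtgc
A match describes letters only.

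Total counts per library ran from 29906785 to 43551003, and all 9 members were among the 17358 genes kept by the filter on low counts. Libraries of WT chow had lower scaling factors (TMM, 0.73 to 0.83) than the rest (1.03 to 1.26). Ppara (ENSMUSG00000022383, chr15:85734983-85802819), the targeted gene, was at 120.1, 96.2, 238 and 226 CPM (counts per 1e6 reads, TMM-scaled) in the 4 WT chow libraries, 59.5, 75.5 and 73.5 CPM in WT CDAHFD, 14.4 and 38.7 CPM in KO chow, and 36.3, 20.7 and 51.9 CPM in KO CDAHFD. Every KO library was below every WT library, and the counts are of the whole gene in whole liver, not of the deleted part in hepatocytes. Ppara was 6.40-fold lower in KO chow than in WT chow (log2 fold change -2.68, SE 0.50, adjusted p = 0.0011). It was also 2.45-fold lower in WT CDAHFD than in WT chow (-1.29, SE 0.40, adjusted p = 0.016), a call lost with library size as the only scaling (-0.71, adjusted p = 0.14). The call was also lost without WT chow replicate 3 (-1.06, adjusted p = 0.051) or without WT CDAHFD replicate 1 (-1.19, adjusted p = 0.064). Between KO CDAHFD and WT CDAHFD the libraries did not overlap, but the difference did not pass (-0.94, SE 0.42, adjusted p = 0.55). With the clock score described below as a covariate this difference passed (-1.34, SE 0.23, adjusted p = 0.020). Summed markers of liver cell types also moved with the groups. For the 7 measured hepatocyte genes the summed level was between 88743 and 107320 CPM in the WT chow libraries. It was between 73738 and 83328 CPM with KO on chow, between 43851 and 53947 CPM with WT on CDAHFD and between 41303 and 56887 CPM with KO on CDAHFD. The 8 macrophage genes summed to 258 to 476 CPM in WT chow and 906 to 1772 CPM in the other groups, the 8 stellate cell genes to 110 to 195 CPM and 838 to 1563 CPM, and the 8 cholangiocyte genes to 79.6 to 117 CPM and 196 to 933 CPM. The 8 endothelial genes summed to 210 to 311 CPM in WT chow and 204 to 288 CPM with KO on chow. With WT on CDAHFD they were at 142 to 196 CPM, below every WT chow library, and with KO on CDAHFD at 147 to 250 CPM. Of these genes 5 fell with WT on CDAHFD and 4 with KO on CDAHFD, where 25.0% and 25.4% of all genes fell. Egfl7 of this list and Tstd1 of the cholangiocyte list overlap Agpat2 and Usf1, whose counts come to 835.6% and 260.5% of theirs. The values of Egfl7 and Tstd1 are therefore uncertain. Lymphocyte genes, at 6.56 to 10.4 CPM, overlapped between WT chow and each other group. None of these lists had a gene at or below 3 counts in every library. In bulk tissue, fewer cells of a type and less RNA per cell cannot be told apart, and the part of these cell types in the results below was not tested.

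Against WT chow, 4 of 9 members passed an adjusted p of 0.05 in KO chow (3 higher, 1 lower), where 39.0% of all tested genes passed (22.0% higher, 17.0% lower). In WT CDAHFD 5 of 9 passed (4 higher, 1 lower), where 51.1% of all genes passed (26.1% higher, 25.0% lower), and in KO CDAHFD 5 of 9 passed (4 higher, 1 lower), where 52.4% of all genes passed (26.9% higher, 25.4% lower). The members' share is near the background of each comparison and is not a result about the members. The median log2 fold change of the 9 members was 0.24, 0.13 and 0.15 in the 3 comparisons, and that of all genes was 0.0022, -0.048 and -0.040. Dnmt1, Uhrf1, Dnmt3a and Mbd1 passed in all 3 comparisons and Tet1 in those with CDAHFD. Tet2, Tet3, Dnmt3b and Uhrf2 passed in none of them. The 3 comparisons share the 4 WT chow libraries.

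**Figure D1:**
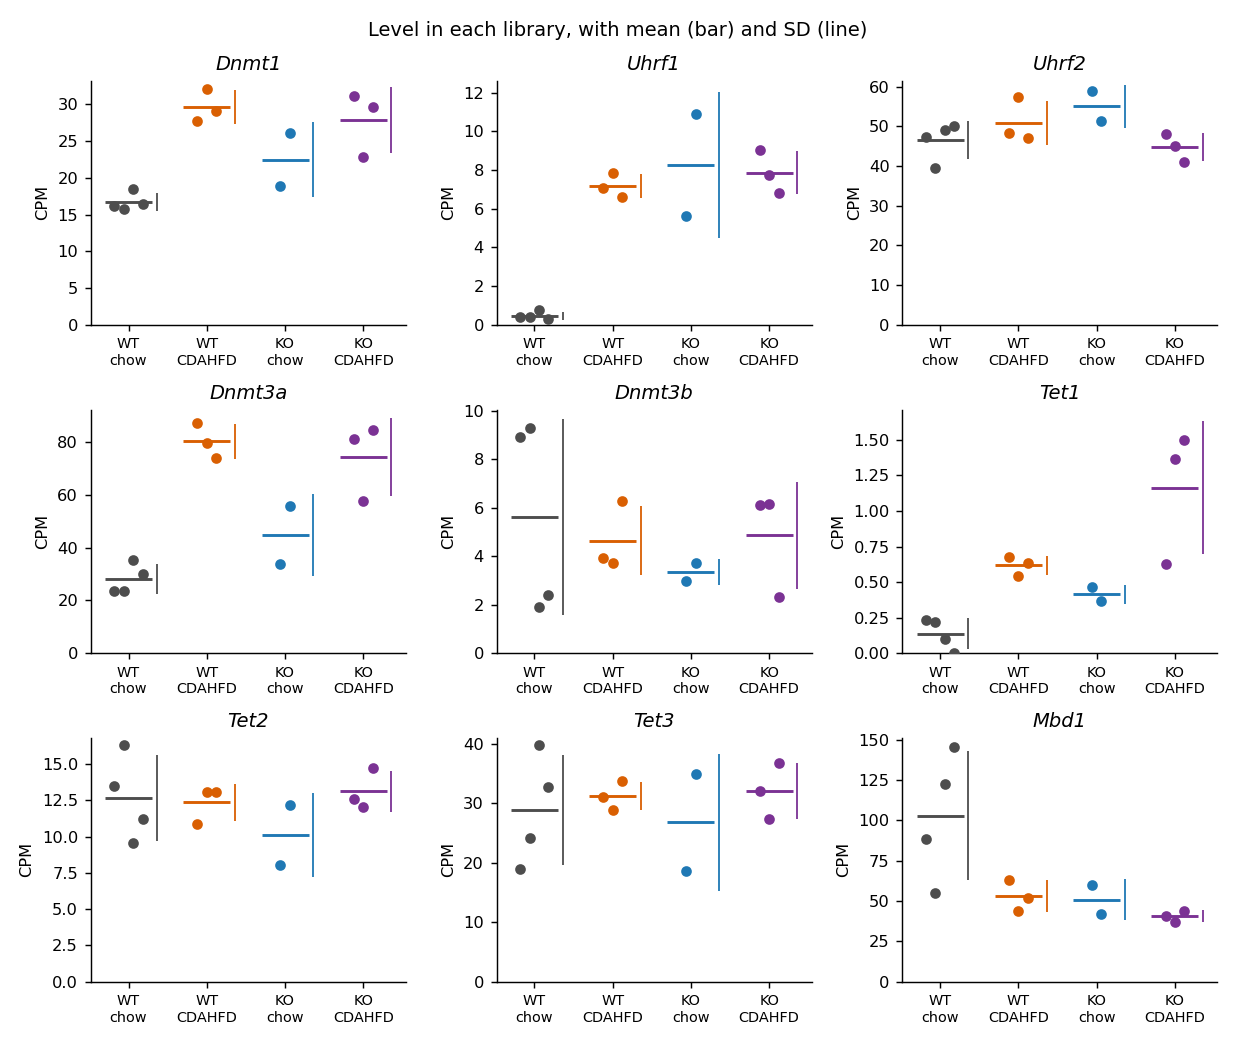
Level of each of the 9 members in CPM (vertical axes, from 0) in the 12 libraries, grouped on the horizontal axis by genotype and diet, with the group mean as a bar and the SD as a line. Uhrf1 lies under 1 CPM in all WT chow libraries and between 5.60 and 10.9 CPM elsewhere, while the Dnmt3b libraries of WT chow range from 1.90 to 9.29 CPM.

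Levels of different genes were compared per length, as CPM per kilobase of exon. The length is the union of all annotated exons, not that of an expressed transcript, and the order depends on it. Before this scaling Dnmt3a, with 16642 bases, had a mean of 28.05 CPM in WT chow, and Dnmt1, with 7377 bases, 16.7 CPM. In WT chow the order was Mbd1 (15.3 ± 5.94, SD, n = 4), Uhrf2 (5.42 ± 0.555), Dnmt1 (2.27 ± 0.16), Tet3 (1.73 ± 0.55), Dnmt3a (1.69 ± 0.34), Dnmt3b (1.10 ± 0.79), Tet2 (0.750 ± 0.174), Uhrf1 (0.11 ± 0.049) and Tet1 (0.0089 ± 0.0071). Tet3 and Dnmt3a did not differ beyond their spread there, nor did Dnmt3b and Tet2. Mbd1 had the highest mean and Uhrf2 the next in all 4 groups, but their libraries were apart in WT chow alone. They overlapped in WT CDAHFD (7.88 ± 1.47 and 5.92 ± 0.66, n = 3), in KO chow (7.59 ± 1.88 and 6.41 ± 0.62, n = 2) and in KO CDAHFD (6.07 ± 0.53 and 5.21 ± 0.41, n = 3). Tet1 was the last in all 4. Below them the order differed between groups: in WT CDAHFD Dnmt3a was at 4.82 ± 0.40 CPM per kilobase (n = 3) and Dnmt1 at 4.01 ± 0.31, and Uhrf1, at 1.69 ± 0.15, reached the level of Tet3 at 1.87 ± 0.14. In KO chow Uhrf1 stood at 1.94 ± 0.88 (n = 2), number 5 of the 9 and not apart from Tet3 at 1.605 ± 0.69.

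**Figure D2:**
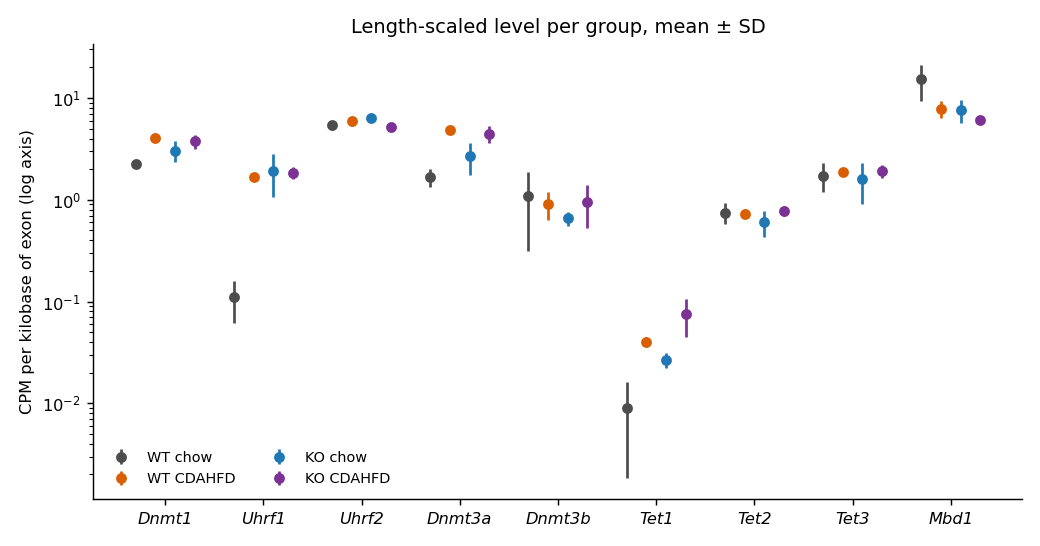
Level of each member per kilobase of exon (vertical axis, log scale, mean ± SD over the libraries of a group) for the 4 groups in colours. Mbd1 and Uhrf2 are highest in every group and Tet1 lowest, and Uhrf1 moves from 0.11 in WT chow to 1.69 in WT CDAHFD.

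Uhrf1 (ENSMUSG00000001228, chr17:56303321-56323486, plus strand), the reader of half-methylated DNA, had the largest change of the 9. Its counts in the 4 WT chow libraries were 11, 13, 23 and 6 reads, or 0.427, 0.409, 0.767 and 0.275 CPM. It was at 7.07, 7.86 and 6.60 CPM in WT CDAHFD, 5.60 and 10.9 CPM in KO chow, and 9.02, 7.73 and 6.83 CPM in KO CDAHFD. All 8 libraries outside WT chow were above all 4 within it, and the other 3 groups overlapped each other. Uhrf1 was 17.1-fold higher in KO chow (log2 fold change 4.10, SE 0.32, adjusted p = 1.1e-06, edgeR quasi-likelihood test), 14.9-fold in WT CDAHFD (3.90, SE 0.30, adjusted p = 4.6e-07) and 16.3-fold in KO CDAHFD (4.03, SE 0.30, adjusted p = 3.4e-07). These calls held in every alternative fit that was run.

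Dnmt1 (ENSMUSG00000004099, chr9:20907209-20959888, minus strand), the methyltransferase that copies the mark, rose in all 3 comparisons with WT chow, most weakly supported in KO chow. It was at 16.2, 15.8, 18.5 and 16.4 CPM in WT chow and at 27.7, 32.1 and 29.1 CPM in WT CDAHFD. In KO chow the pair was at 18.9 and 26.1 CPM, and in KO CDAHFD the values were 31.2, 22.8 and 29.6 CPM. Both KO chow libraries were above every WT chow library, the first by little. Dnmt1 was 1.77-fold higher in WT CDAHFD (log2 fold change 0.82, SE 0.14, adjusted p = 2.9e-04), 1.67-fold in KO CDAHFD (0.74, SE 0.14, adjusted p = 6.5e-04) and 1.34-fold in KO chow (0.43, SE 0.16, adjusted p = 0.045). The KO chow call rests on its second library, since without it the log2 fold change was 0.18 (adjusted p = 0.49), and it was also lost with only the 2 groups in the fit (adjusted p = 0.075) or without WT chow replicate 1, 2 or 4 or any 1 WT CDAHFD library (0.42 to 0.43, adjusted p = 0.055 to 0.079). Of the 17358 genes, 27.2% had all KO chow libraries above all WT chow libraries, and 4 of the 9 members did so: Dnmt1, Uhrf1, Tet1 and Uhrf2. None of the 9 was below without overlap, as 23.0% of genes were. In WT CDAHFD and in KO CDAHFD, Dnmt1, Uhrf1, Dnmt3a and Tet1 were above without overlap, as were 28.0% and 26.7% of all genes. Below without overlap were 0 and 1 of the members (Mbd1), and 27.4% and 24.8% of all genes.

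Uhrf2 (ENSMUSG00000024817, chr19:30030513-30093722), the paralog that binds oxidised methylcytosine, passed in no comparison. Its level was 47.4, 39.6, 49.2 and 50.04 CPM in WT chow, 48.3, 57.3 and 47.0 CPM in WT CDAHFD, 58.8 and 51.3 CPM in KO chow, and 48.1, 45.1 and 41.15 CPM in KO CDAHFD. The groups overlap, apart from KO chow, whose libraries are just above those of WT chow and above those of KO CDAHFD. Its log2 fold changes against WT chow were 0.24 in KO chow (95% interval -0.0098 to 0.50), 0.13 in WT CDAHFD (-0.096 to 0.35) and -0.055 in KO CDAHFD (-0.28 to 0.17). Uhrf2 was 31.8 to 90.2 times the level of Uhrf1 per kilobase in the 4 WT chow libraries and 2.33 to 5.21 times in the 8 others.

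**Figure D3:**
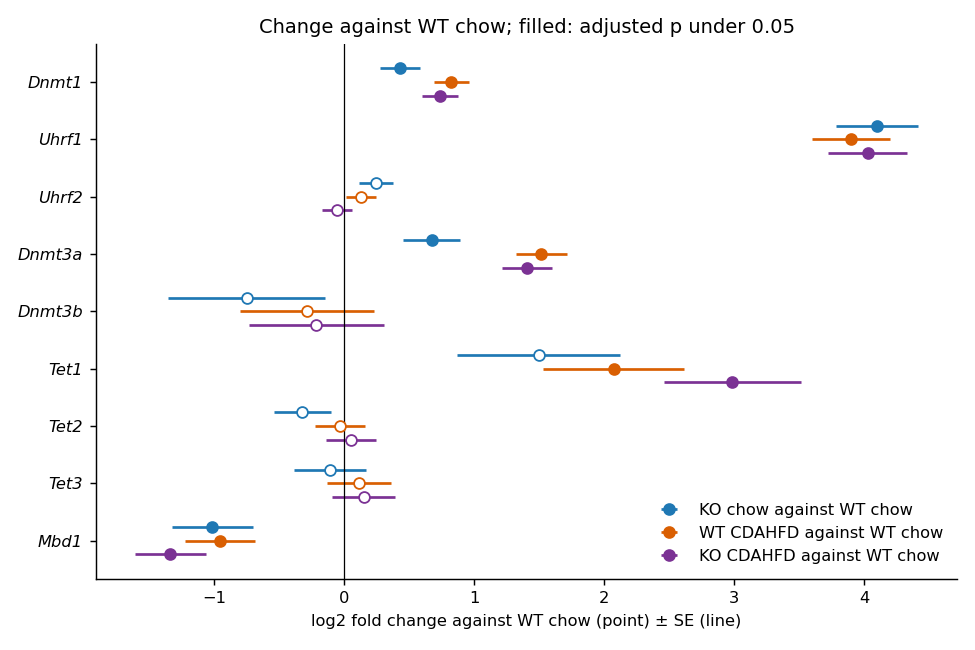
Log2 fold change against WT chow (horizontal axis, point, ± SE as a line) for each member (vertical axis), with 1 colour for each of the 3 other groups. Filled points passed an adjusted p of 0.05, and Uhrf1 is near 4 in all 3 comparisons while Mbd1 is near -1.

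The genes that work with this pair were followed in a list of 10 partners of maintenance methylation. In each comparison with WT chow 4 of them rose and 1 fell, and these 5 of 10 are near the 39.0%, 51.1% and 52.4% of all genes called. Hells, a chromatin remodeller needed for CpG methylation, rose by 2.75 on the log2 scale in KO chow (SE 0.31, adjusted p = 2.0e-05), 1.958 in WT CDAHFD and 1.98 in KO CDAHFD. Cdca7l, a relative of its partner CDCA7, rose by 2.39, 2.79 and 2.87 and Lig1, the ligase that joins the new strand, by 1.73, 1.68 and 1.81. Cdca7l and Lig1 overlap genes of the opposite strand, Dnah11 and Zswim9, whose counts come to 16.4% and 49.1% of theirs, and whether strand was used in counting is not given in the sources used here. Pcna, the clamp to which DNMT1 binds, rose by 0.76, 0.76 and 0.77, and Usp7, the deubiquitinase of UHRF1 and DNMT1, fell, with log2 fold changes of -0.34, -0.36 and -0.41. The median log2 fold change over the 10 genes was 0.38, -0.0088 and 0.060.

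Genes of the S phase also rose. Of 18 replication genes, 17 rose and 0 fell in KO chow (median log2 fold change 1.68), 14 rose and 1 fell in WT CDAHFD (1.14), and 15 rose and 1 fell in KO CDAHFD (1.16). Of all genes 22.0%, 26.1% and 26.9% rose in these comparisons, and 17.0%, 25.0% and 25.4% fell. The largest were Cdc6, which loads the replicative helicase (3.51, SE 0.44, in KO chow), Gins2, a subunit of the helicase (2.92, SE 0.27, uncertain because the overlapping Gse1 has more counts than Gins2 itself), and Mcm5 (2.88, SE 0.22). All 16 of the 16 mitotic genes rose against WT chow in each comparison (median log2 fold change 4.57 in KO chow, 3.93 and 3.89 with CDAHFD), among them Ccnb1, the mitotic cyclin, by 6.24 (SE 0.50) in KO chow. Opposite-strand genes with more counts than the gene itself also overlap Cdc45, Ccne2, Mcm7 and Tk1 of the S-phase list and the mitotic Ccna2. The values of these genes are uncertain too. The mean log2 CPM of the S-phase genes was 1.62 to 1.97 in WT chow and 2.996 to 3.57 in the other libraries, so WT chow is separate from all others on this scale too. Whether the change in Uhrf1 and Dnmt1 differs from that of replication as a whole was not tested.

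**Figure D4:**
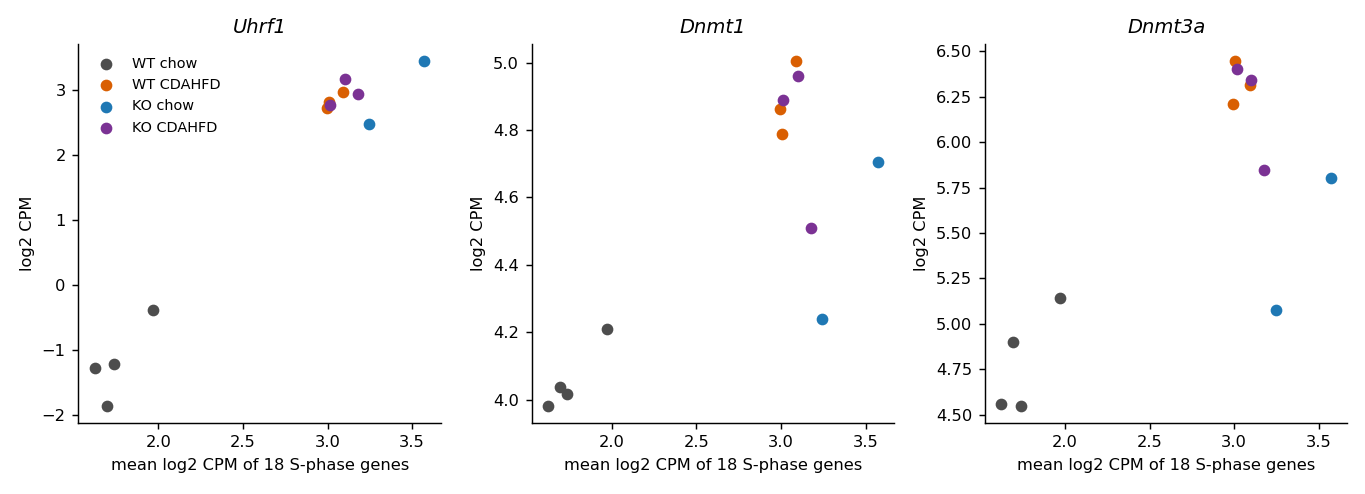
Log2 CPM of Uhrf1, Dnmt1 and Dnmt3a (vertical axes) against the mean log2 CPM of 18 S-phase genes (horizontal axis) in the 12 libraries, coloured by group. The WT chow libraries lie at 1.62 to 1.97 on the horizontal axis and apart from the others, and for Dnmt1 and Dnmt3a the KO chow libraries lie right of the rest without being the highest.

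Dnmt3a (ENSMUSG00000020661, chr12:3806007-3914443), a de novo methyltransferase, rose in all 3 comparisons with WT chow. It was at 23.4, 23.5, 35.3 and 29.9 CPM in WT chow, 87.1, 79.6 and 73.9 CPM in WT CDAHFD, 33.7 and 55.7 CPM in KO chow, and 80.9, 57.5 and 84.4 CPM in KO CDAHFD. The CDAHFD libraries were all above WT chow, whereas the first KO chow library was within its range. The log2 fold change was 1.52 in WT CDAHFD (SE 0.20, adjusted p = 3.7e-05), 1.41 in KO CDAHFD (SE 0.20, adjusted p = 6.3e-05) and 0.67 in KO chow (SE 0.22, adjusted p = 0.027). The KO chow call was lost without its second library (0.27, adjusted p = 0.44), without WT chow replicate 1 or 2 (0.61, adjusted p = 0.052 and 0.060) and with only the 2 groups in the fit (adjusted p = 0.054). Between KO chow and WT CDAHFD the difference was -0.84 (SE 0.24, adjusted p = 0.057), which passed with library size only, DESeq2, edgeR 4 defaults, no filter on low counts, only the groups compared and the clock score, and was -0.53 without the first KO chow library and -1.25 without the second.

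Dnmt3b (ENSMUSG00000027478, chr2:153649450-153687730), the other de novo enzyme, did not follow the groups. It was at 8.93, 9.29, 1.90 and 2.38 CPM in WT chow, 3.93, 3.71 and 6.27 CPM in WT CDAHFD, 2.96 and 3.73 CPM in KO chow, and 6.13, 6.15 and 2.33 CPM in KO CDAHFD. The WT chow libraries split into a high and a low pair. The third KO CDAHFD library was within the low pair and the other libraries lay between the pairs. No comparison passed, with log2 fold changes against WT chow of -0.75 in KO chow (95% interval -1.94 to 0.44), -0.29 in WT CDAHFD (-1.30 to 0.72) and -0.21 in KO CDAHFD (-1.23 to 0.80). Per kilobase, Dnmt3a was 0.778 to 5.71 times the level of Dnmt3b in WT chow and 2.87 to 11.1 times elsewhere. Of the 7 de novo and imprint partners, 5 were tested, and the called ones included Zfp57, the zinc finger protein of imprinted regions, which rose by 0.83 in KO chow (SE 0.29, adjusted p = 0.037) and by 0.91 in KO CDAHFD. It was the 1 call of this list in KO chow, and no gene of the list was called there without WT chow replicate 1, 3 or 4, the first WT CDAHFD library or the first KO chow library. In WT CDAHFD Smchd1 rose and Zbtb24 fell, and in KO CDAHFD Zfp57 rose and Zbtb24 fell, with no other call. Zbtb24 had a mean of 15.5 CPM in WT chow, 11.5 CPM in WT CDAHFD and 12.5 CPM in KO CDAHFD. Of all genes 22.0%, 26.1% and 26.9% rose in the 3 comparisons with WT chow, and 17.0%, 25.0% and 25.4% fell. Dnmt3l and Dnmt3c, relatives expressed in germ cells, had at most 7 and 3 counts in a library.

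Among the erasers, Tet1 (ENSMUSG00000047146, chr10:62804570-62908996, minus strand) was barely detected in WT chow, with 6, 7, 3 and 0 reads. A count of 0 in a library allows up to 3 reads, and this limit covers counting error only. Its level was 0.233, 0.220, 0.10 and 0 CPM in WT chow, 0.676, 0.544 and 0.634 CPM in WT CDAHFD, 0.462 and 0.364 CPM in KO chow and 0.630, 1.36 and 1.498 CPM in KO CDAHFD. All libraries of the other groups were above all of WT chow, with 15 to 63 reads. The log2 fold change was 2.07 in WT CDAHFD (SE 0.54, adjusted p = 0.0065), 2.98 in KO CDAHFD (SE 0.53, adjusted p = 4.3e-04) and 1.49 in KO chow (SE 0.62, adjusted p = 0.076). The KO chow value passed with DESeq2 (1.52, adjusted p = 0.036) and with library size as the only scaling (1.88, adjusted p = 0.029), and in the other alternative fits its adjusted p was 0.056 to 0.27.

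Tet2 (ENSMUSG00000040943, chr3:133463679-133545139) was at 13.5, 16.3, 9.54 and 11.2 CPM in WT chow, 10.9, 13.1 and 13.1 CPM in WT CDAHFD, 8.05 and 12.2 CPM in KO chow, and 12.6, 12.03 and 14.7 CPM in KO CDAHFD. The groups overlapped. Its log2 fold changes against WT chow were -0.32 with KO on chow (95% interval -0.75 to 0.11), -0.034 with WT on CDAHFD (-0.41 to 0.34) and 0.051 with KO on CDAHFD (-0.32 to 0.43).

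Tet3 (ENSMUSG00000034832, chr6:83362373-83459084), the most abundant of the erasers per length, was at 18.9, 24.2, 39.8 and 32.7 CPM in WT chow, 31.1, 28.95 and 33.7 CPM in WT CDAHFD, 18.7 and 34.9 CPM in KO chow, and 32.1, 27.3 and 36.8 CPM in KO CDAHFD. The WT chow and KO chow libraries spread widely, and the range of WT chow covers the libraries of the diet groups. None of its comparisons passed, and the intervals of the log2 fold change against WT chow were -0.66 to 0.44, -0.37 to 0.59 and -0.33 to 0.63.

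Of 14 tested partners of demethylation and the TET enzymes (median log2 fold change -0.14 with KO on chow, -0.15 with WT on CDAHFD and -0.16 with KO on CDAHFD), 2 rose in each comparison: Gadd45b, by 2.33, 2.95 and 3.04 on the log2 scale, and Gadd45a, by 2.03, 1.61 and 2.30, stress-induced genes linked with active demethylation. None fell in KO chow, 2 fell in WT CDAHFD and 3 in KO CDAHFD. Dcaf1, part of a ubiquitin ligase, was at -0.42 and -0.57 in the CDAHFD comparisons, Cxxc5 at -0.59 in WT CDAHFD and Lig3, a DNA repair ligase, at -0.47 in KO CDAHFD. The 2, 4 and 5 of 14 genes called are below the shares of all genes given above. The number called was 5 in KO chow without its second library and 4 without WT chow replicate 1, and 2 in WT CDAHFD without its first or its second library. Gadd45a overlaps a gene on the opposite strand with 12.1% of its counts. Dcaf1 overlaps 2 such genes, Manf and Rbm15b, with 339.2% and 72.24% of its counts, and Lig3 overlaps Rffl, with 102.4%. The values of Dcaf1 and Lig3 are therefore uncertain. Tdg, the glycosylase that removes oxidised methylcytosine, was at 0.097, 0.0061 and -0.13 and did not pass in any. Among the 8 enzymes that supply 2-oxoglutarate, Idh2, of the mitochondrion, rose by 0.77, 0.91 and 1.06. Of the 8, 1 rose and 4 fell in KO chow, and 2 rose and 6 fell in WT CDAHFD. In KO CDAHFD 1 rose and 6 fell. Of all genes 22.0%, 26.1% and 26.9% rose in the 3 comparisons, and 17.0%, 25.0% and 25.4% fell. Got1 fell the most in WT CDAHFD, at -1.51 (SE 0.27). The number called in KO chow, 5 in both directions, was 3 without either of its libraries.

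Mbd1 (ENSMUSG00000024561, chr18:74267605-74282732), which binds methylated CpG, was the 1 member that passed with a lower level. It was at 88.4, 54.6, 123 and 146 CPM in WT chow, 63.3, 43.7 and 51.6 CPM in WT CDAHFD, 59.8 and 42.0 CPM in KO chow and 40.9, 37.0 and 44.1 CPM in KO CDAHFD. The WT chow libraries ranged more widely than the difference between the group means, and the second of them was inside the range of WT CDAHFD and KO chow. The log2 fold change was -1.01 in KO chow (SE 0.31, adjusted p = 0.021), -0.96 in WT CDAHFD (SE 0.27, adjusted p = 0.0098) and -1.34 in KO CDAHFD (SE 0.27, adjusted p = 0.0012). With library size as the only scaling the median gene rose by 0.40, 0.51 and 0.57 in these comparisons, and the calls of KO chow (-0.60, adjusted p = 0.12) and WT CDAHFD (-0.39, adjusted p = 0.20) were lost. Without the second KO chow library the KO chow value was -0.78 (adjusted p = 0.17), and with only the 2 groups in the fit it was -0.99 (adjusted p = 0.070).

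Of 9 other genes listed as methyl-CpG readers or relatives of such readers, 4 fell in KO chow and 0 rose. Of all genes 17.0% fell there and 22.0% rose. In both directions together, the 4 of 9 called are near the 39.0% of all genes. The number called was 1 without the first KO chow library and 2 without WT chow replicate 4. Zbtb38 was at -0.63 (SE 0.10, adjusted p = 3.0e-04) and Mbd6 at -0.57. In WT CDAHFD 2 rose and 2 fell: Mbd4, a glycosylase that repairs mismatches at CpG, rose by 0.995 (SE 0.24, adjusted p = 0.0044) and Zbtb4 by 0.75, while Zbtb33 and Zbtb38 fell, at -0.37 and -0.31. The same 4 genes passed in KO CDAHFD, with Mbd4 at 1.53. Of all genes 26.1% rose and 25.0% fell in WT CDAHFD, and 26.9% rose and 25.4% fell in KO CDAHFD. Mbd2 and Mbd3 did not pass in any of the 3.

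Of 16 genes of the cycle of S-adenosylmethionine, 6 fell and 0 rose in KO chow, 10 fell and 1 rose in WT CDAHFD, and 10 fell and 1 rose in KO CDAHFD (median log2 fold change -0.36, -0.75 and -0.52). Of all genes 17.0%, 25.0% and 25.4% fell. The number called in KO chow was 1 without its first library, and 1 to 8 over all libraries left out in turn. Ahcy, which removes the product inhibitor of methyltransferases, fell, with log2 fold changes of -1.56, -1.89 and -1.80, and so did Gnmt, which uses up surplus S-adenosylmethionine, at -1.10, -2.49 and -2.01. Bhmt, which remakes methionine from betaine, fell by 1.54 in KO chow (SE 0.41, adjusted p = 0.0094) and did not pass in WT CDAHFD (-0.77, adjusted p = 0.074) or KO CDAHFD (-0.40, adjusted p = 0.34). Mat2a, the S-adenosylmethionine synthetase of non-hepatocytes and growing cells, was the 1 that rose with CDAHFD, by 1.06 in WT and 1.001 in KO, and was at 0.00030 in KO chow, whereas Mat1a, its hepatocyte counterpart, fell, at -1.02 and -0.76, and was at -0.34 in KO chow (adjusted p = 0.29).

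No member passed between KO CDAHFD and WT CDAHFD, where 0.357% of all genes did, and none had an unadjusted p under 0.05 or was called by DESeq2. The log2 difference of Dnmt1 was -0.088 (95% interval -0.38 to 0.20), that of Uhrf1 0.13 (-0.38 to 0.64), and that of Dnmt3a -0.11 (-0.52 to 0.30), so a difference within these limits remains possible. Tet1 had the largest, 0.91 (-0.0035 to 1.82). Between KO CDAHFD and KO chow none of the 9 passed where 6.19% of all genes did, while Dnmt3a, Tet1 and Uhrf2 had an unadjusted p under 0.05 and DESeq2 called 2, Dnmt3a and Tet1. Between KO chow and WT CDAHFD, too, none passed where 6.12% of all genes did, while Dnmt1 and Dnmt3a had an unadjusted p under 0.05 and DESeq2 called Dnmt3a.

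The interaction of genotype and diet asks whether CDAHFD moved a gene by a different amount in KO than in WT mice. Uhrf1 alone passed among the 9 (-3.97, SE 0.42, adjusted p = 3.5e-05), where 23.1% of all genes passed, and 14.5% of all genes with a negative interaction. The diet changed Uhrf1 by 3.90 in WT mice and by -0.073 in KO mice, whose chow libraries were already high. Dnmt1, Dnmt3a and Uhrf2 had interactions of -0.51, -0.78 and -0.43 with unadjusted p under 0.05 and adjusted p of 0.10, 0.083 and 0.11. All 16 mitotic genes and 14 of the 18 S-phase genes had negative interactions that passed.

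Some members moved with genes of the daily clock. A clock score, the centred mean log2 CPM of 9 evening genes less that of 5 morning genes, was -3.06, -2.78, 3.03 and 3.21 in WT chow, -0.10, -1.08 and -1.12 in WT CDAHFD, -2.26 and 1.43 in KO chow and -0.65, -0.67 and 4.07 in KO CDAHFD. The score differed within 3 of the 4 groups by more than 3 log2 units, and the hour of sampling is not given in the sources used here. In a fit with the groups and this score, 8.27% of all genes and 3 of the 9 members had a coefficient that passed: Dnmt3b fell by 0.28 log2 units per unit of score (SE 0.052, adjusted p = 0.0077), Tet3 rose by 0.12 (SE 0.024, adjusted p = 0.011) and Dnmt3a by 0.089 (SE 0.022, adjusted p = 0.031). Mbd1 was at 0.091 (SE 0.038, adjusted p = 0.17). The same 3 passed without the third KO CDAHFD library, where 7.75% of genes passed. Within WT chow alone, where 0.192% of genes passed, none of the 7 members tested did, with Dnmt3b at -0.34 (SE 0.042, adjusted p = 0.061). The score was built from these libraries, and this relation was added after the data were seen. Sampling time was not tested. The high and low Dnmt3b pairs of WT chow are the pairs with the lowest and the highest score.

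**Figure D5:**
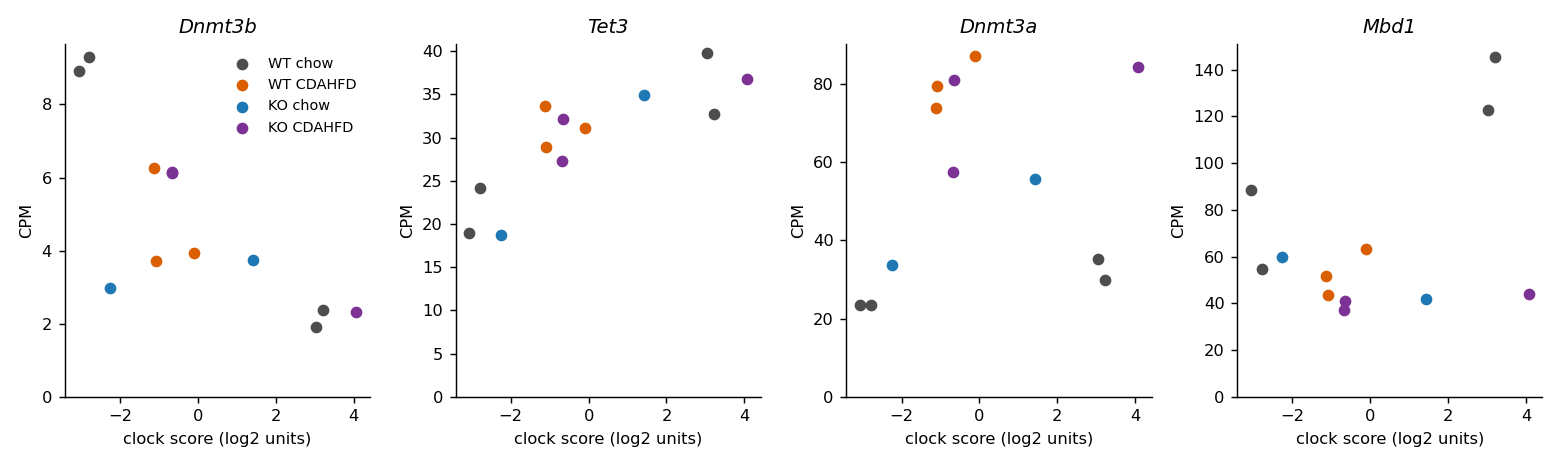
CPM of Dnmt3b, Tet3, Dnmt3a and Mbd1 (vertical axes, from 0) against the clock score in log2 units (horizontal axis) in the 12 libraries, coloured by group. Dnmt3b goes from 9.29 CPM at a score of -2.78 to 1.90 CPM at 3.03 in WT chow, while Tet3 goes the other way.

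Across the 12 libraries, the genes most like each member in log2 CPM, with a mean of at least 50 counts, were named as a description, since the libraries share depth and the 4 groups. The pattern of Uhrf1 was closest to those of Ccdc120 (Pearson r 0.99), Chaf1b, a histone chaperone of replication (0.99), and Lig1 (0.99). Genes close to Dnmt1 included Dnmt3a (0.97) and Piezo1 (0.97), and those close to Dnmt3a included Rasa3 (0.99) and Plxna1 (0.98). Dnmt3b was closest to Hmgxb4 (0.93), Tet3 to Herc3 (0.94) and Npc1 (0.93), Tet1 to Pmepa1 (0.97) and Ltbp2 (0.96), Tet2 to Shank2 (0.88), Uhrf2 to Nck1 (0.90), and Mbd1 to Exd1 (0.95) and Wdr45b (0.95). Within groups, after taking away the group means, the r of Dnmt1 with Dnmt3a was 0.84 and that of Uhrf1 with Lig1 was 0.70.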

How the data were processed

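The authors deposited raw read counts for each Ensembl gene, made from poly-A liver RNA. The submitters' notes name FastQC 0.11.5, STAR 2.7.3a, GRCm38 and DESeq2; the counting program, its strand setting and the annotation release are not given in the sources used here. Symbols, positions and exon lengths come from GENCODE M21, where 52081 of 55357 identifiers (94.08%) matched, with 99.69% of all counts. Software was edgeR 4.0.16, DESeq2 1.42.0 and limma 3.58.1 under R 4.3.3, plus Python 3.11.15. Genes were kept by filterByExpr with the groups, library sizes were scaled with TMM, and edgeR's quasi-likelihood test was run on 1 model of all 12 libraries with 4 group means. Adjusted p is Benjamini-Hochberg over 17358 genes, a gene is called at an adjusted p under 0.05, and the SE of a log2 fold change is its size divided by the root of F. CPM use TMM library sizes, spreads are SDs, and 95% intervals are of the log2 fold change. The steps were tested on simulated data. Members, lists and the rule for named genes were chosen with earlier results of these data known. The rule names all 9 members, Ppara, the 4 largest called changes of each list per comparison with WT chow, and the 3 genes most like each member. Some genes that the rule names are not reported here. Alternatives were other scalings, DESeq2, edgeR 4 defaults, no filter on low counts, only the groups compared, each library left out, a replicate block, and a clock score as covariate. Totals of 29906785 to 43551003 reads limit the precision for Tet1 and Uhrf1 in WT chow.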

Additional observations from a re-analysis of the deposited data

Results flagged for a closer look

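The effect of CDAHFD on Uhrf1 differed between the genotypes, by a test of the difference itself. The interaction was -3.968 on the log2 scale (SE 0.42, edgeR quasi-likelihood test, adjusted p = 3.5e-05), with CDAHFD moving Uhrf1 by 3.90 in WT mice and -0.073 in KO mice, in which the chow libraries were already at 5.60 and 10.9 CPM.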

How the results depend on the processing

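Alternatives other than leaving a library out include the fits of only the groups compared, which use fewer libraries. Among results of a member in alternatives of this kind, 444 kept their direction and side of the threshold and 21 changed sign. With the sign kept, 24 became calls and 6 lost theirs, and with a library left out the 4 numbers were 704, 34, 7 and 11. Tet2 in WT CDAHFD and Uhrf2 in KO CDAHFD against WT chow, which changed sign and became calls with library size only, are among the 21. The number of members called in KO chow against WT chow was 5 with DESeq2, which added Tet1, 5 with library size only, which added Tet1 and Uhrf2 and lost Mbd1, 1 with only the 2 groups in the fit and 1 to 4 with a library left out. In WT CDAHFD against WT chow it was 7 with library size as the only scaling, which added Uhrf2 (0.69), Tet2 (0.52) and Tet3 (0.68) and lost Mbd1 (-0.39), and 5 in every other fit, and in KO CDAHFD against WT chow it was 8 with library size only. For KO CDAHFD against KO chow it was 1 with library size only, 2 with DESeq2, 1 without the filter on low counts and 1 with the clock score; for KO chow against WT CDAHFD it was 1 with each of library size only, DESeq2, edgeR 4 defaults, no filter, only the groups compared and the clock score, and 0 to 1 with a library left out; for the interaction it was 4 with library size only, 2 without the filter, 3 with the clock score and 1 to 3 with a library left out. Library size only shifted the median gene by 0.40, 0.51 and 0.57 against WT chow (KO chow first, then WT and KO on CDAHFD), and under it Tet2 was at 0.075 and Tet3 at 0.30 in KO chow, Dnmt3b at 0.25 and Tet2 at 0.52 in WT CDAHFD, Dnmt3b at 0.35 and Uhrf2 at 0.55 in KO CDAHFD, Uhrf1 at 0.13 in KO CDAHFD against KO chow, Uhrf2 at -0.043 in KO chow against WT CDAHFD and Tet3 at -0.20 in the interaction. Tet2 in WT CDAHFD was at 0.0043 with DESeq2's size factors, 0.0042 with DESeq2, 0.017 without the filter and 0.013 with only the groups compared, Uhrf2 in KO CDAHFD at 0.0020 without the filter, and with the clock score Dnmt3b was at 0.21 in KO CDAHFD against WT chow, Tet3 at -0.17 in KO CDAHFD against WT CDAHFD and -0.12 in the interaction. The cause was not tested.

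The replicate numbers do not pair the libraries: of 15 same-numbered pairs of libraries 3 had a correlation of deviations over 0.1, with a median of -0.019 against 0.0125 for other numbers. With the replicate block, 3 members were called in KO chow against WT chow, where Dnmt1 was lost (0.45, adjusted p = 0.095), Tet3 was at 0.13 there and at -0.10 in the interaction, Dnmt3b at -0.15 in KO CDAHFD against WT CDAHFD and Mbd1 at 0.042 in KO chow against WT CDAHFD. With a library left out, values that changed sign ranged as follows. Against WT chow they were -0.63 to 0.29 for Tet3 in KO chow, -0.57 to 0.090 for Dnmt3b, -0.13 to 0.14 for Tet2 and -0.020 to 0.33 for Tet3 in WT CDAHFD, and -0.49 to 0.16 for Dnmt3b, -0.11 to 0.0056 for Uhrf2 and -0.038 to 0.24 for Tet2 in KO CDAHFD. Between the CDAHFD groups they were -0.18 to 0.038 for Dnmt1, -0.21 to 0.045 for Dnmt3a, -0.13 to 0.41 for Dnmt3b, -0.0056 to 0.14 for Tet2 and -0.073 to 0.14 for Tet3. In KO CDAHFD against KO chow they were -0.46 to 0.48 for Uhrf1, -0.10 to 0.78 for Tet3 and -0.065 to 1.33 for Ppara, in KO chow against WT CDAHFD -0.36 to 0.60 for Uhrf1, -0.74 to 0.15 for Tet3 and -0.34 to 0.18 for Mbd1, and in the interaction -0.24 to 0.66 for Tet3. Depth limits Tet1, with at most 63 reads in a library, and Uhrf1 in WT chow.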
